A study of Laccaria bicolor with 4 samples.

Results

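Active islands are genes of *Laccaria bicolor* that were transcribed in untreated mycelium while most of the genes around them were not. The 23125 gene models were put in genomic order, and islands were chosen by their untreated level: a gene counted as expressed when its mean TPM (a transcript level scaled for gene length and library depth, in which every library has the same total) over the untreated libraries was above 0.05, and as silent otherwise. An expressed gene was called an island when 75% or more of up to 10 genes on each side, and at least 10 in all on the same linkage group or scaffold, were silent. The rule found 387 islands among 15059 expressed genes, beside 8066 silent genes. Of these, 123 were strong (10 TPM or more), 126 middle (1 to 10 TPM) and 138 weak (under 1 TPM), against 8716 strong, 4277 middle and 1679 weak expressed genes outside islands. Because untreated levels chose and graded the islands, those levels are a description. Span, distance in bp and the vitamin C libraries were not used by the rule. Gene order and the ends of linkage groups and scaffolds did enter it, and it selected silent surroundings. Position and distance are therefore not independent of it.

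The study sequenced ribosome-depleted, DNase-treated RNA from mycelium of the haploid, monokaryotic strain S238N-H82, wild type and cultured for 8 weeks. It had 2 libraries from cultures given 5 mM vitamin C for 2 days and 2 from untreated cultures. The submitters call the libraries biological replicates; the sources used here do not say whether the cultures were separate, and any p-value measures only the spread between these libraries. The gene identifiers carry no names, and 0 of 23125 were found in RefSeq's table for this species, so genes are given by position on the V2 assembly, without a function, and the mycelium label was not checked against marker genes.

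Ectomycorrhizal basidiomycetes such as *L. bicolor* have repeat-rich genomes in which transposable elements are held silent by DNA methylation and heterochromatin, the compact state of chromatin. Genes that lie within such stretches can be silenced with them, or can be transcribed from their own promoters. Vitamin C is a cofactor of the TET dioxygenases, which oxidize 5-methylcytosine in DNA, and the comparison with untreated mycelium asks whether RNA levels differ after it was added.

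Vitamin C replicate 1 was deeper than the other libraries, with a coverage of 3.53 per TPM, against 2.76 to 2.84. Between 14734 and 14861 genes stood above 0.05 TPM in a library, and the coverage of those genes had a median of 39.1 to 57.5 reads per base, highest in vitamin C replicate 1. The islands took 0.828% to 0.880% of all TPM in each library. A level of 0.05 TPM corresponded to a mean coverage of 0.138 to 0.176, so weak islands rest on few reads, and an exact 0 can be a failed estimate as well as an absence of RNA.

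The strong islands had lower medians than strong genes outside in every library. Their medians were 27.1 and 25.5 TPM in the vitamin C libraries, against 22.3 and 27.1 TPM in the untreated libraries, and strong genes outside had 41.1 and 36.1 TPM with vitamin C, against 36.5 and 40.8 TPM untreated. Of the 123, 90 had an untreated mean under 50 TPM and 14 had 100 TPM or more. The weak islands had medians of 0.282 and 0.222 TPM with vitamin C, against 0.271 and 0.263 TPM untreated. In the 122 strong islands above 0 in both replicates of each condition, the replicates lay close together. The strong island left out was at 0 in untreated replicate 1 and at 82.8 TPM in untreated replicate 2. The log2 ratio of replicate 2 to replicate 1 had an SD across those 122 of 0.33 in vitamin C and 0.46 in untreated mycelium. Strong genes outside islands, taken likewise, had an SD of 0.30 and 0.39. For weak islands detected in both replicates it was 0.93 in vitamin C and 0.86 in untreated mycelium.

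**Figure D1:**
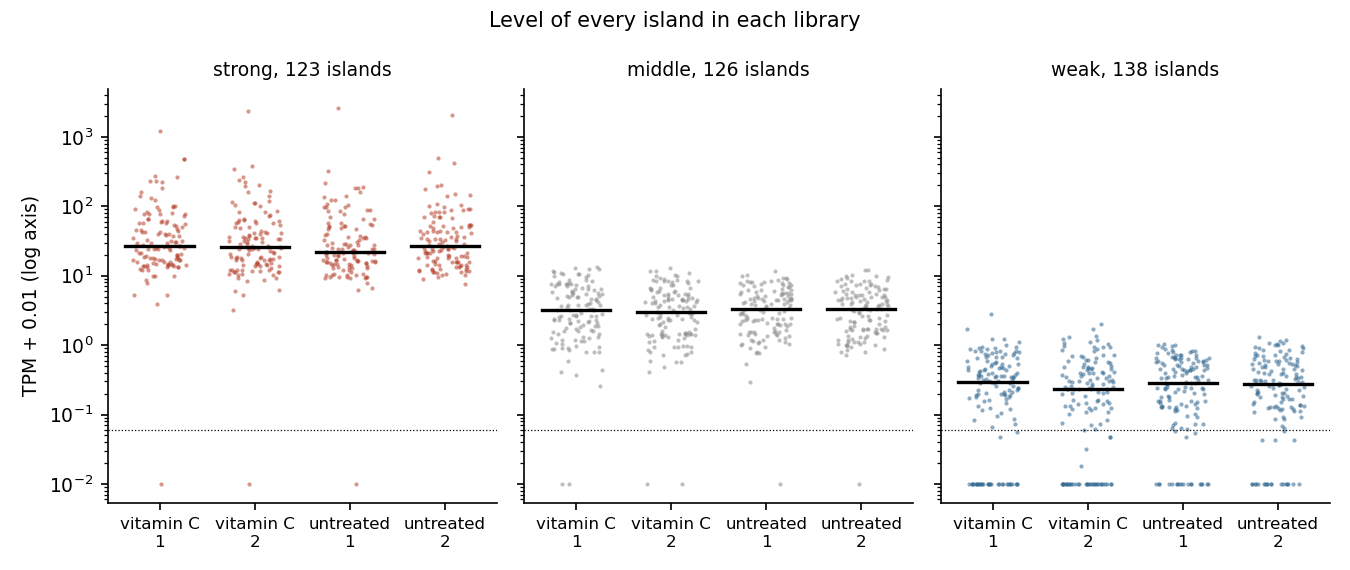
TPM (plus 0.01, log axis) of every strong, middle and weak island in each of the 4 libraries; each point is an island, the bar is the median and the dotted line marks 0.05 TPM. The medians of strong islands lie between 22.3 and 27.1 TPM in the 4 libraries, and the points of weak islands at the bottom are genes listed at 0.

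The island with the highest untreated level lay on linkage group 7 from 777468 to 778094, on the plus strand. It had 1232 and 2332 TPM in the vitamin C libraries, against 2617 and 2033 TPM in the untreated libraries, and the groups overlap. This gene alone held 22.1% of the summed mean TPM of strong islands with vitamin C and 29.2% of it untreated. It starts 19 bp from the start of a divergent model that is listed at 0 in all 4 libraries, and 15 of its 20 neighbours were silent.

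The same linkage group carries other models of the same span. A 627 bp gene from 745056 to 745682, also 19 bp from a divergent model, had 2989 and 4582 TPM with vitamin C, against 5923 and 4624 TPM untreated. It has 14 silent neighbours of 20 and so fell just outside the rule. A 627 bp model from 789354 to 789980, again with a neighbour 19 bp away, is listed at 0 in all 4 libraries. The level of the outside gene was 2.43 and 1.96 times that of the island with vitamin C, against 2.26 and 2.27 times untreated. Models of 282 bp and 237 bp lie side by side beyond the island and beyond the gene from 745056. Beyond the model from 789354 lie models of 323 bp and 282 bp instead. The model 19 bp away spans 684 bp at the island, but 221 bp at both other genes. Equal spans and gaps of this kind occur in duplicated segments, but the sequences were not compared here, and reads from near-identical copies could have been shared out among them, so the split of the level between these genes is uncertain. The span of 627 bp itself also occurs in 19 genes on other linkage groups and scaffolds.

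The next island, on linkage group 2 from 3424706 to 3425065, had 486 and 376 TPM with vitamin C, against 318 and 491 TPM untreated. Of its 20 neighbours 18 were silent, and the 9 models that precede its divergent partner in order are listed at 0 in every library. The partner, 20 bp away from 3424423 to 3424685 on the minus strand, is itself counted as a strong island, but on 1 library: it is listed at 0 in both vitamin C libraries, and at 0 in untreated replicate 1 and 82.8 TPM in untreated replicate 2. No other strong island is at 0 in any library.

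The other leading islands were spread over 5 linkage groups and a scaffold. On linkage group 8, from 698180 to 698452, an island had 163 and 158 TPM with vitamin C, against 188 and 423 TPM untreated. On linkage group 7, from 747210 to 747979, an island had 477 and 339 TPM with vitamin C, against 184 and 315 TPM untreated. That model overlaps 2 models of the opposite strand that are listed at 0. The library kit keeps strand, but nothing read here says whether the quantification used it, so opposite overlapping genes cannot be told apart with certainty.

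Of the other 6 among the 10 highest, 4 had both vitamin C libraries above both untreated libraries. On linkage group 4, from 1904757 to 1905573, the levels were 232 and 237 TPM with vitamin C, against 185 and 197 TPM untreated. On linkage group 5, from 3222183 to 3224263, they were 230 and 263 TPM with vitamin C, against 215 and 142 TPM untreated. On the same linkage group, from 2384576 to 2385723, they were 275 and 221 TPM with vitamin C, against 163 and 176 TPM untreated. None of these islands passed the adjusted threshold across genes described below, so these differences are values and not calls.

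An island on linkage group 2, from 3196719 to 3197789, had 227 and 202 TPM with vitamin C, against 123 and 147 TPM untreated. On scaffold 23, from 250260 to 250712, the levels were 261 and 197 TPM with vitamin C, against 142 and 199 TPM untreated. The last of the 10, on linkage group 2 from 852360 to 856280, had 92.7 and 54.5 TPM with vitamin C, against 76.3 and 151 TPM untreated. At 3921 bp it also has the longest span of any strong island.

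Strong islands were also found in complete isolation. Only 16 islands had 20 silent genes of 20 around them, and 4 of these were strong, 4 middle and 8 weak. The strong one on linkage group 10, from 696384 to 697050, lies 4556 bp from its nearest gene and had 37.7 and 27.0 TPM with vitamin C, against 27.8 and 41.7 TPM untreated. The one on linkage group 5, from 3060883 to 3061734, had 31.2 and 24.5 TPM with vitamin C, against 16.8 and 23.2 TPM untreated. On scaffold 19, from 512455 to 512828, the levels were 34.7 and 36.2 TPM with vitamin C, against 25.9 and 22.5 TPM untreated. These 3 genes were thus expressed in all 4 libraries beside genes that were not.

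The fourth, on scaffold 12 from 1455548 to 1456569, had 12.2 and 9.37 TPM with vitamin C, against 16.1 and 33.4 TPM untreated. Its highest level came from untreated replicate 2 alone. The shortest strong island, 150 bp on linkage group 3 from 2995924 to 2996073, lies wholly within a convergent middle island of the opposite strand, from 2995814 to 2996363. It had 80.0 and 58.2 TPM with vitamin C, against 51.6 and 69.8 TPM untreated, and the longer model had 0 and 8.99 TPM with vitamin C, against 7.83 and 0 TPM untreated, so the doubt about strand applies to both levels. The strong island farthest from any gene, 5959 bp away, lies on scaffold 13 from 1447826 to 1448570 and had 12.5 and 11.4 TPM with vitamin C, against 10.2 and 11.3 TPM untreated.

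The word island holds for the wider window more than for the adjacent genes. At the place directly before a strong island in genomic order, 42.3% of genes were above 0.05 TPM with vitamin C, against 43.9% untreated, and directly after it 39.8% with vitamin C, against 38.2% untreated. At 4 places away the shares were 18.7% before and 8.33% after with vitamin C, against 17.9% and 8.33% untreated. Beside weak islands fewer adjacent genes were expressed, 26.8% before and 31.2% after with vitamin C, against 24.6% and 31.2% untreated. The rule used the untreated levels of these same neighbours, so the low shares follow from the selection, and the vitamin C shares lie close to the untreated ones.

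**Figure D2:**
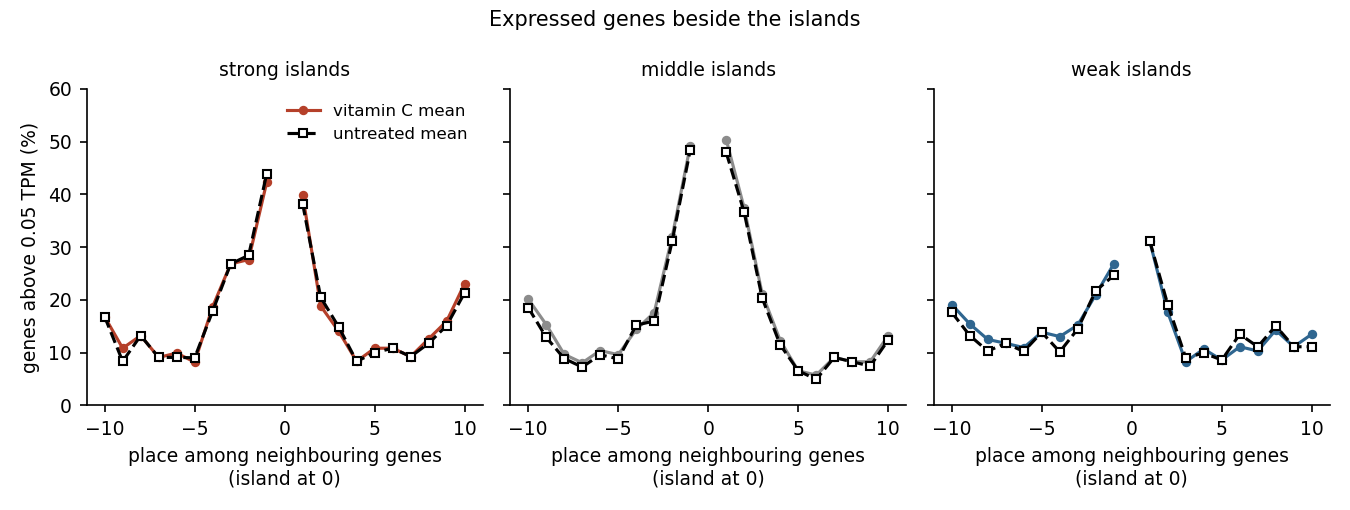
Share of genes above 0.05 TPM (%) at each of 10 places on either side of strong, middle and weak islands, from vitamin C means (filled circles) and untreated means (open squares). Beside strong islands the share is 42.3% and 39.8% at the adjacent places with vitamin C, against 43.9% and 38.2% untreated.

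Many islands came in runs of adjacent expressed genes, and the rule limits the length of such a run. Of the 387, 154 had no expressed gene directly beside them: 48 strong, 35 middle and 71 weak. The other 233 lay in 101 runs of 2 to 6 adjacent expressed genes. An island is allowed too few expressed neighbours for a longer run, so the upper limit of 6 was set by the selection. The nearest gene by distance was expressed for 48.8% of strong, 57.1% of middle and 34.1% of weak islands, against 95.9%, 92.5% and 82.0% of strong, middle and weak genes outside islands. The rule asks for silent neighbours, so the contrast with genes outside was set by the selection.

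The longest run of islands lay on linkage group 1 from 246538 to 266010 and held 6, the most that the rule allows, of which 5 were strong. Its first member, from 246538 to 249520, had 39.7 and 34.3 TPM with vitamin C, against 33.0 and 42.7 TPM untreated. Its only middle member, from 251131 to 252412, had 1.55 and 1.69 TPM with vitamin C, against 1.99 and 3.90 TPM untreated.

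On linkage group 6, from 758011 to 764102, 4 strong islands followed one another on the plus strand. The first, of 393 bp, had 97.0 and 81.5 TPM with vitamin C, against 88.1 and 101 TPM untreated. The last, of 1621 bp, had 23.5 and 11.9 TPM with vitamin C, against 10.5 and 21.1 TPM untreated. In each of the 4, vitamin C replicate 1 exceeded replicate 2 and untreated replicate 2 exceeded replicate 1, and the levels of the conditions overlap.

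A run on linkage group 3, from 6064121 to 6073605, joined both extremes. Its first member, from 6064121 to 6064459, was weak, listed at 0 in both vitamin C libraries against 0.139 and 0.104 TPM in the untreated libraries. The strong member from 6067649 to 6069492 had 58.3 and 57.8 TPM with vitamin C, against 52.8 and 48.7 TPM untreated. The strong member 221 bp beyond it, from 6069714 to 6070788 and on the opposite strand, had 13.2 and 16.7 TPM with vitamin C, against 28.1 and 19.0 TPM untreated. Of these divergent neighbours, the minus-strand gene was above and the plus-strand gene below its untreated libraries in both vitamin C libraries.

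Strong islands were short. Their span, from the start to the end of the model with introns included, had a median of 986 bp (quartiles 581.5 and 1802.5 bp), against 1224.5 bp (595.25 and 2055.25 bp) for weak islands, and middle islands had 999.5 bp. Outside islands the order was the other way, with 1494 bp for strong and 1007 bp for weak genes. Silent genes had a median of 837 bp, and all genes 1191 bp. A span under 300 bp was found in 8.13% of strong and 7.97% of weak islands, against 3.10% of strong and 10.5% of weak genes outside. With 60% or more silent neighbours in place of 75%, the medians were 1105 bp for strong and 1107 bp for weak islands, so the difference between the classes depends on that limit. The quartiles of strong and weak islands overlap widely, and since genes are not replicates no test was run across them.

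Strong islands lay farther from the nearest gene than strong genes outside did. The distance to the nearest gene, with 0 for models that abut or overlap, had a median of 497 bp (quartiles 193.5 and 934 bp) for strong islands, against 298 bp (110 and 765.25 bp) for weak islands. Middle islands had 450.5 bp. Outside islands strong genes had 152 bp and weak genes 283 bp, so that the strong islands and the strong genes outside differed in their medians by more than the weak ones did. Silent genes had 462 bp, near the value of the strong islands. As the rule selects silent surroundings, the distance of islands is not independent of the selection. The nearest gene was more than 1000 bp away for 20.3% of strong, 27.0% of middle and 18.8% of weak islands, against 5.22% of strong, 7.67% of middle and 12.0% of weak genes outside, and for 26.2% of silent genes.

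**Figure D3:**
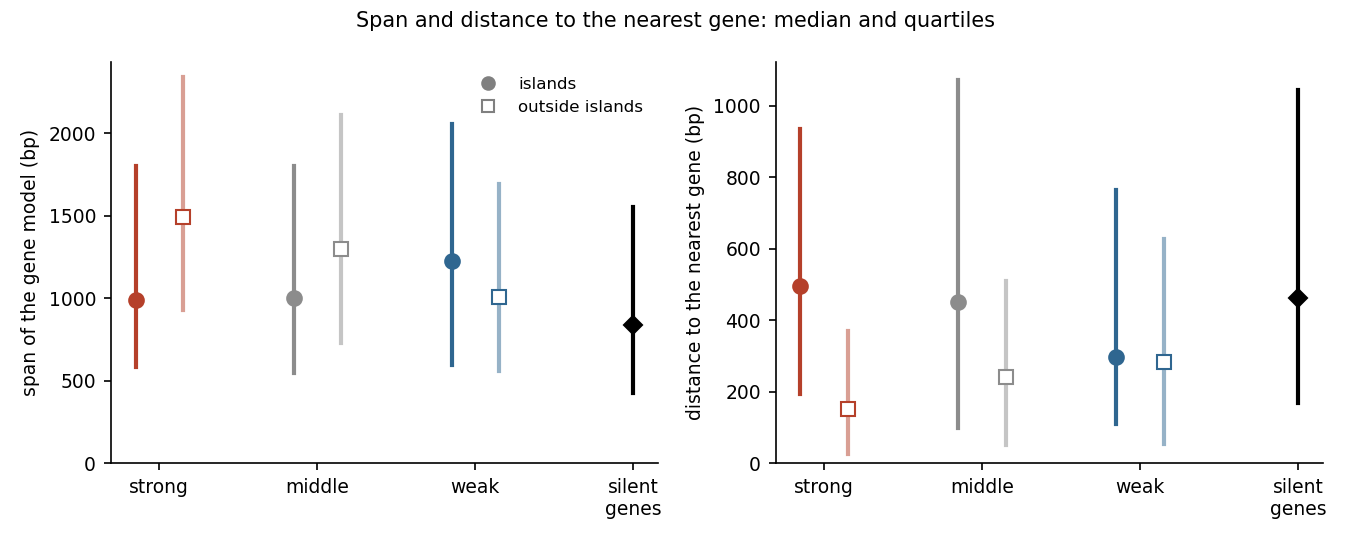
Median (symbol) and quartiles (line) of the span of the gene model and of the distance to the nearest gene, in bp, for islands (filled circles) and expressed genes outside islands (open squares) of each level class, and for silent genes (diamond). Strong islands have a median span of 986 bp against 1494 bp for strong genes outside, and a median distance of 497 bp against 152 bp.

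Against strong genes outside, strong islands had wider gaps on both sides. The gap upstream of the start of the gene had a median of 821 bp in strong islands, against 401 bp in strong genes outside. The gap downstream of its end had a median of 1240 bp, against 458 bp. Silent genes had 1037 bp upstream and 1013 bp downstream, so the upstream gap of strong islands was narrower than theirs. Each gap runs to the nearest model that does not overlap the gene. Weak islands had 933 bp upstream and 1003 bp downstream, against 790 bp and 741 bp in weak genes outside. Middle islands had 1101 bp upstream and 900 bp downstream, so among the classes of islands the strong ones had the smallest median gap upstream and the largest downstream.

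Overlap with another gene model was less frequent in strong and weak islands than outside. It was found for 8.94% of strong, 17.5% of middle and 7.97% of weak islands, against 20.9%, 19.4% and 19.7% of strong, middle and weak genes outside. Silent genes had less than any class of islands, at 5.42%, so a low share is not particular to islands. Where the neighbour was on the opposite strand, overlap occurred in 4.88% of strong islands, against 14.8% of strong genes outside and 2.31% of silent genes.

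The nearest gene was divergent, with starts facing each other, more often in strong islands than in strong genes outside. It was divergent for 33.3%, convergent for 18.7% and on the same strand for 48.0% of strong islands, against 23.2%, 32.7% and 44.1% of strong genes outside. In weak islands it was divergent for 28.3% and convergent for 25.4%, against 20.8% and 29.9% of weak genes outside. Middle islands had 23.8% divergent and 27.0% convergent, and silent genes 22.6% and 24.4%, so the low convergent share is not particular to islands. Strong islands that are each other's nearest divergent gene are both counted. The plus strand held 43.9% of strong and 44.9% of weak islands, against 50.4% and 48.4% of strong and weak genes outside.

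Strong islands lay near the ends of linkage groups and scaffolds more often than strong genes outside islands. Within 100 kb of the first or last gene were 14.6% of strong and 15.2% of weak islands, against 4.96% of strong and 13.6% of weak genes outside. Silent genes, at 12.7%, had a share near that of the islands. On a small scaffold every gene lies this near an end, so these shares depend on scaffold size as well as on position. Near an end the window of neighbours is also cut, and 30 islands had fewer than 20 neighbours. The shares are thus not independent of the rule. Of the islands, 301 lay on the 10 linkage groups and 86 on other scaffolds.

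Linkage group 5 was rich in islands. It held 56, of which 17 were strong, 13 middle and 26 weak, or 45.3 per 1000 genes, and islands made up 10.7% of its expressed genes. Linkage group 1, with 62 islands, had 12.9 per 1000 genes, and linkage group 10, with 13, had the fewest of the linkage groups at 7.81 per 1000. On scaffold 23, 104 of 118 genes were silent and 8 islands made up 57.1% of the expressed genes. On scaffold 26, 34 of 45 genes were silent and 6 islands made up 54.5%. Linkage group 5 had 712 silent genes of 1235, and the silent share is part of the rule. Without linkage group 5 the median span was 1018.5 bp in strong islands, against 1224.5 bp in weak islands, and the median distance 490 bp against 354 bp.

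**Figure D4:**
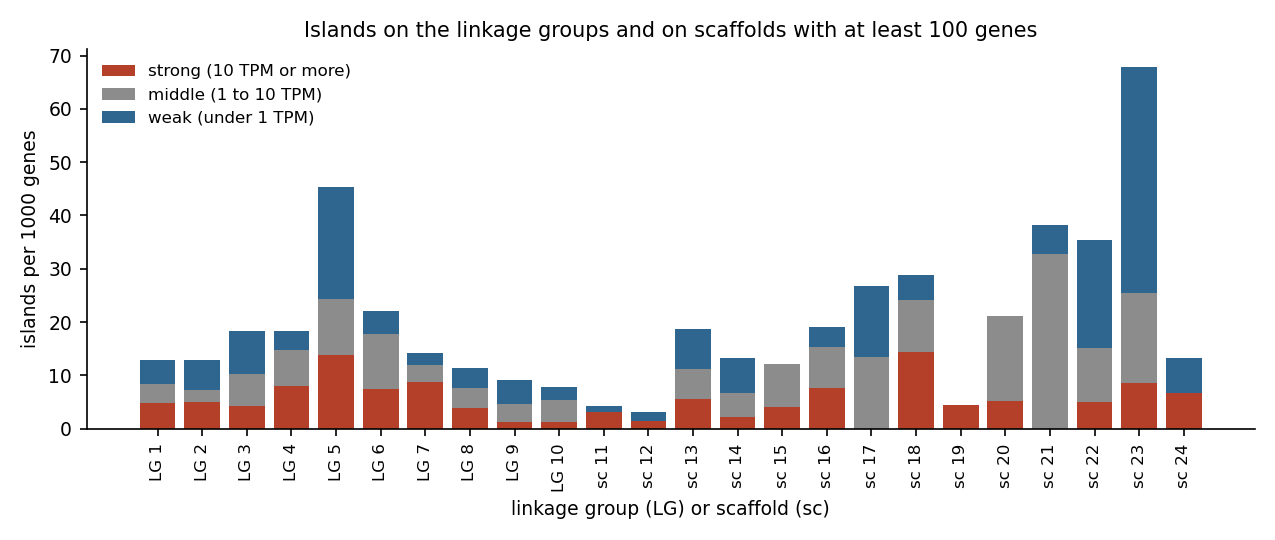
Islands per 1000 genes on each linkage group (LG) and on scaffolds (sc) with at least 100 genes, stacked by strong, middle and weak. Linkage group 5 stands at 45.3 per 1000, against 7.81 on linkage group 10, and scaffold 23 at 67.8.

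The vitamin C libraries, which the rule did not use, held the strong islands at similar levels. Of 123, 122 (99.2%) were above 0.05 TPM in both vitamin C libraries, and 117 had a vitamin C mean of 10 TPM or more. Of 126 middle islands 123 (97.6%) were above it in both. Fewer weak islands were detected: 87 of 138 (63.0%) were above 0.05 TPM in both vitamin C libraries, 34 in 1 of them and 17 in none. Weak genes outside islands had 70.2% in both, and strong genes outside 99.9%. These are bulk libraries, in which fewer cells of a type and less RNA per cell cannot be told apart.

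Most silent genes around the islands stayed silent, as silent genes did in general. Within 10 genes of an island lay 3014 silent genes, and 2962 of them (98.3%) had a vitamin C mean of 0.05 TPM or less, against 97.4% of all silent genes. Only 2 reached a vitamin C mean of 1 TPM, the highest at 6.10 TPM. Applied to the vitamin C means, the rule found 401 islands, of which 331 were islands before. These were 112 of 123 strong, 109 of 126 middle and 110 of 138 weak ones. By the vitamin C means, 0.252% of expressed genes outside islands and 0.409% of silent genes met the rule.

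Weak islands rest on little signal. In the untreated libraries 36 of 138 (26.1%) are listed at 0 in 1 of the replicates, and 95 were above 0.05 TPM in both. Their median coverage was 0.996 and 0.614 with vitamin C, against 0.769 and 0.745 untreated, whereas strong islands had 95.6 and 70.6 with vitamin C, against 63.1 and 76.6 untreated. The 3 weak islands with the highest vitamin C mean lay on scaffolds 25, 17 and 21. The one on scaffold 25, from 195016 to 196121, had 2.79 and 2.00 TPM with vitamin C, against 0.650 and 0.983 TPM untreated. On scaffold 17, from 211494 to 211942, the levels were 1.70 and 1.69 TPM with vitamin C, against 1.03 and 0.968 TPM untreated. On scaffold 21, from 316140 to 318254, they were 1.20 and 1.34 TPM with vitamin C, against 0.883 and 0.544 TPM untreated. These were picked for their vitamin C level, so their height there is a description. Of 138 weak islands, 7 (5.07%) had a vitamin C mean of 1 TPM or more, against 8.76% of weak genes outside.

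No island passed the test of vitamin C against untreated mycelium. limma on log2(TPM + 1) over all 15107 genes with a mean TPM above 0.05 called 7 genes higher (0.0463%) and 7 lower (0.0463%) at an adjusted p under 0.05, and 0 of the 378 islands it included in either direction. The lowest adjusted p of an island was 0.252. At an unadjusted p under 0.05, 15 of 123 strong islands were higher and 7 lower, where the background was 4.98% higher and 8.13% lower of all genes tested. Of 129 weak islands tested, 3 were higher and 5 lower. Of 126 middle islands, 6 were higher and 8 lower.

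In 40 strong islands both vitamin C libraries were above both untreated libraries and in 16 both were below, where the background over all genes tested was 21% and 24.9%. Untreated levels entered both the rule and this contrast, so nothing is read from these counts. With 2 libraries a side, the smallest two-sided p of an exact permutation test of a single gene is 0.333. On this scale the median change was 0.13 in strong islands, -0.010 in weak islands and -0.019 over all genes tested. Fold changes on log2(TPM + 1) understate those of low genes. Leaving out a library moved the strong median between 0.032 and 0.17. Between single libraries it ran from -0.0089 (replicate 2 of each condition) to 0.25 (replicate 1 of each), so its sign depends on the libraries compared.

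**Figure D5:**
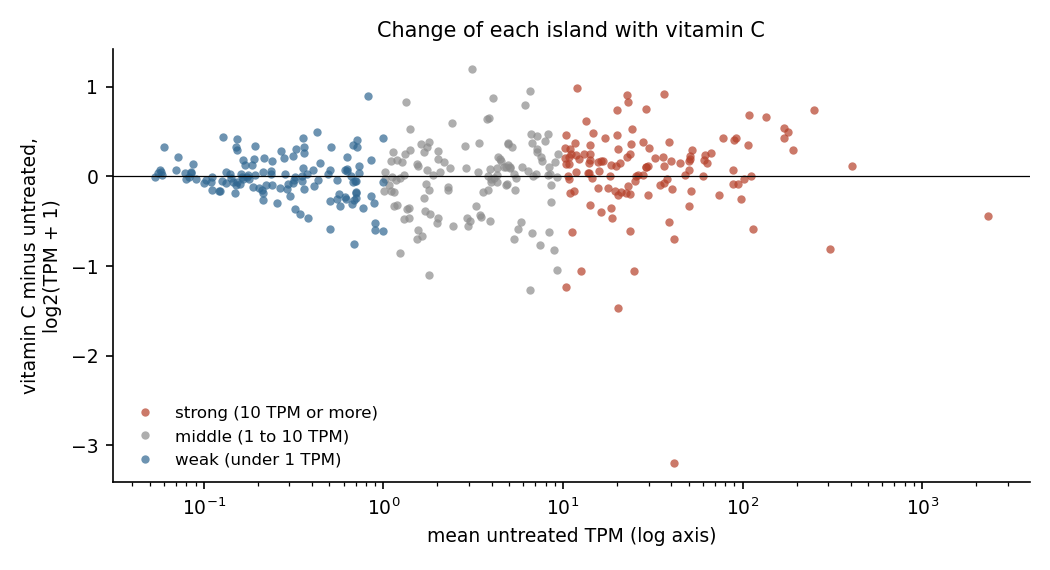
Change with vitamin C (vitamin C minus untreated, log2(TPM + 1)) of each of the 378 islands tested, against its mean untreated TPM (log axis). Strong, middle and weak islands lie around 0; the lowest point is the linkage group 2 gene listed at 0 in 3 of 4 libraries.

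The strong islands with the largest differences whose libraries do not overlap were the following. Higher with vitamin C was gene_27338, on scaffold 31 from 10079 to 10514, with 29.4 and 18.3 TPM with vitamin C, against 16.4 and 7.65 TPM untreated. Its change was 0.98 on the log2(TPM + 1) scale (SE 0.38), with a limma adjusted p of 0.352. The next, gene_464, on linkage group 1 from 1133063 to 1133784, had 76.2 and 63.1 TPM with vitamin C, against 32.6 and 40.0 TPM untreated. Its change was 0.92 (SE 0.19), with a limma adjusted p of 0.252. In neither gene do the libraries of the 2 conditions overlap, yet neither passed.

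Lower with vitamin C was gene_24067, on scaffold 13 from 1401677 to 1402694, with 5.35 and 5.95 TPM with vitamin C, against 9.44 and 31.2 TPM untreated. Its change was -1.47 (SE 0.49), with a limma adjusted p of 0.317. The other, gene_27110, on scaffold 25 from 20343 to 21361, had 3.84 and 3.21 TPM with vitamin C, against 6.28 and 14.5 TPM untreated. Its change was -1.23 (SE 0.38), with a limma adjusted p of 0.310. In both genes untreated replicate 2 was far above untreated replicate 1.

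That library stood out in a group of strong islands noticed after their values were seen. In 9 of 123 strong islands (7.32%) untreated replicate 2 was more than 1.5 times every other library, against 241 of 8716 strong genes outside (2.77%). The same excess was found in 2 strong islands for vitamin C replicate 1, in 0 for vitamin C replicate 2 and in 0 for untreated replicate 1. The 9 include the island on linkage group 2 that is present in this library alone. As these are levels that the rule used, the difference between the groups was not tested.

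Some of them had similar spans. Spans of 1018 to 1022 bp were found in 5 strong islands, on linkage group 5 and scaffolds 12, 13, 25 and 28, and no other range of this width held as many. The range was picked for that count, so the count is a description. In the 4 on scaffolds untreated replicate 2 was the highest library. The one on scaffold 28, from 44025 to 45046, had 18.2 and 34.7 TPM with vitamin C, against 24.0 and 54.2 TPM untreated. The one on linkage group 5, from 2440876 to 2441893, had 28.0 and 35.2 TPM with vitamin C, against 27.7 and 30.4 TPM untreated, with no such excess. A middle island of 1022 bp on linkage group 6, from 2329026 to 2330047, had 2.91 and 2.43 TPM with vitamin C, against 3.15 and 7.46 TPM untreated. Whether these models share sequence was not tested here, as no genome of this build was used, and reads from like copies could be split between them. Among all strong islands 18 share their exact span with another strong island, including 3 of 374 bp with vitamin C means of 21.6 to 35.4 TPM and untreated means of 19.8 to 24.2 TPM. Such shared spans also occur in other genes: 374 bp is found in 10, 393 bp in 24 and 453 bp in 22 gene models in all.

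Some islands fell in another class by their vitamin C means. With vitamin C, 95.1% of strong islands had a mean of 10 TPM or more, against 95.8% of strong genes outside. The classes were set on untreated means, so some such losses can follow from the selection. The strong islands with a vitamin C mean under 10 TPM were 6. They comprise the island on linkage group 2 listed at 0 in 3 libraries, gene_24067 and gene_27110, and 3 more. On linkage group 3, from 7947014 to 7948118, the levels were 5.30 and 5.34 TPM with vitamin C, against 9.28 and 15.8 TPM untreated. On scaffold 18, from 19657 to 21691, they were 7.87 and 6.14 TPM with vitamin C, against 12.1 and 10.3 TPM untreated. On linkage group 1, from 250142 to 251016, they were 9.96 and 8.76 TPM with vitamin C, against 9.32 and 12.4 TPM untreated, which overlap.

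The limits of the classes divide a continuous range. The strong islands nearest 10 TPM had untreated means of 10.2 and 10.3 TPM, and the middle islands nearest it 9.25 and 9.38 TPM. The middle islands nearest 1 TPM had 1.01 and 1.02 TPM, and the weak islands nearest it 0.996 and 0.999 TPM. Weak islands nearest 0.05 TPM had 0.0506 and 0.0533 TPM, and silent genes with as few expressed neighbours reached 0.0457 and 0.0484 TPM. Among expressed genes with 20 neighbours, 101 had 15 silent ones and so just met the rule, and 182 had 14 and just missed it.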

How the data were processed

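Ribosome-depleted RNA of *L. bicolor* mycelium was sequenced in 4 libraries, 2 with vitamin C and 2 untreated. The reads were trimmed, mapped by the authors with HISAT2 to the V2 assembly and deduplicated with SAMtools after FastQC, and StringTie gave the deposited values, which are TPM, FPKM and coverage per gene; the authors normalized TPM and FPKM for length and depth, and coverage is the deposited mean read depth per base of a model. Deduplication can lower the levels of highly expressed genes. Counts were not used here, so the authors' DESeq2 test was not repeated.

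Islands were found from mean untreated TPM. The members and lists were chosen with earlier results of these data known. Differences with vitamin C were tested with limma 3.58.1 in R 4.3.3 (trend, all 4 libraries) on log2(TPM + 1), for genes with a mean TPM above 0.05, with Benjamini-Hochberg adjustment over 15107 genes. Islands were described in Python 3.11.15 by counts, medians and quartiles; spans and distances were not tested. The named islands were the 10 with the highest untreated mean, up to 5 strong ones with 20 silent neighbours, the 2 strong ones with the largest change in each direction with libraries that do not overlap (none passed an adjusted p under 0.05), the 2 nearest each class limit, the strong ones with the longest and shortest span and largest distance, and the 3 weak ones highest with vitamin C. Members of runs, islands that changed class and islands high in untreated replicate 2 were named after their values were seen. Scripts were tested on simulated data. Alternatives were other thresholds, windows, units, pseudocounts and normalizations, a replicate block, and leaving out each library.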

Additional observations from a re-analysis of the deposited data

How the results depend on the processing

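The strong median distance exceeded the weak one under all 14 alternatives to the rule. The weak median span exceeded the strong one as well, but at 60% or more silent neighbours the strong median was 1105 bp and the weak one 1107 bp, so the difference in span was nearly lost there. That setting gave 1087 islands (375 strong, 334 weak), with a median distance of 407 bp for strong and 366 bp for weak islands, and 99.7% of strong islands were above 0.05 TPM in both vitamin C libraries. At 90% there were 117 (36 strong, 50 weak), with strong medians of 851.5 bp and 450 bp, a weak distance of 384.5 bp, and 97.2% of strong and 60% of weak islands detected in both. With 5 neighbours on each side the strong medians were 980 bp and 661.5 bp, the weak distance 351 bp and the weak share 55.2%. With 20 neighbours the strong medians were 1001 bp and 432.5 bp and the weak span 1453 bp. A threshold of 0 TPM gave strong medians of 966.5 bp and 529 bp, a weak distance of 332 bp and a weak share of 48.5%. A threshold of 0.1 TPM gave a strong span of 1018 bp, a weak distance of 351 bp and a weak share of 70.9%. A threshold of 0.5 TPM gave 192 strong and 65 weak islands, a strong span of 1046.5 bp and a weak share of 83.1%. Requiring the threshold in both untreated libraries gave 89 weak islands, spans of 966.5 bp strong and 1540 bp weak, and shares of 100% strong and 74.2% weak. Islands found from the vitamin C libraries had strong medians of 984.5 bp and 477 bp. Islands without overlap had strong medians of 1017 bp and 606.5 bp and a weak distance of 368 bp. With strong at 5 TPM and weak under 0.5 TPM, the strong span was 1022 bp and the weak share 53.5%. In alternatives added after seeing the data, the linkage groups alone gave a strong span of 852 bp and a weak distance of 320 bp, and leaving out linkage group 5 gave strong medians of 1018.5 bp and 490 bp and a weak distance of 354 bp.

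When 1 untreated library alone set the rule, the strong span was 1016 to 1018 bp, the weak span 1161 to 1455 bp, the weak distance 308 to 343 bp, the strong share 99.2% to 100% and the weak share 62.9% to 66.2%. The larger weak spans, 1455 bp, came without untreated replicate 1.

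For vitamin C against untreated mycelium, leaving out a library gave 0 to 2 genes higher and 0 to 1 lower, each by limma, with the lone library assumed to vary like the others. Requiring a mean TPM of at least 1 gave 13 higher and 11 lower genes, no filter gave 3 lower genes and 1 lower island, and limma without trend gave 3 lower genes. With the replicate block, limma called 43 genes higher and 85 lower, and 0 islands higher and 2 lower. Which islands those 2 were was not recorded for this alternative. Replicate numbers share no stated origin, and deviations of same-numbered libraries correlated at -0.26 across genes, so the block is not a pairing of samples. The crossed pairing, added after seeing the data, called 100 genes higher and 225 lower, and 8 islands higher and 1 lower. The median change of weak islands was -0.041 at a pseudocount of 0.1 and 0.033 after quantile normalization. Why these values moved was not tested.

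Depth limits weak islands most: their median coverage was under 1 read per base in every library, so for many of them absence in a vitamin C library was not distinguishable from a missed read. With 2 libraries per condition and no counts, a 0 among islands does not show that none changed.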
